A study of Caenorhabditis elegans with 26 samples.

Results

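The mature miRNAs named miR-793, miR-794 and miR-795 were taken by name from the table of raw read counts, alone or with the suffix for the 5p or 3p arm of the hairpin. This gave 5 of 439 entries, namely miR-793, miR-794-5p, miR-794-3p, miR-795-5p and miR-795-3p. They were followed in whole larvae of *Caenorhabditis elegans* grown at 25 °C and sampled every hour from 18 h to 30 h after arrested L1 larvae had been plated on food. The strains were HW2643, with the genotype *mir-235(xe181[seed_mutant])*, named *mir-235(seed_mut)* here and mutant for short, and wild-type N2. In the mutant, bases of the miR-235-3p seed had been replaced at the endogenous locus by genome editing, and neither strain received a treatment. Each strain gave 13 libraries, 1 for each hour.

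The let-7 family is a group of miRNAs that share the seed, the stretch near the 5′ end that pairs with target mRNAs. In *C. elegans* its best known members, let-7, miR-48, miR-84 and miR-241, accumulate during larval life and repress early-acting developmental timing genes, which lets cells move on to later fates. The genes *mir-793*, *mir-794* and *mir-795* were assigned to the same family by their seed, and their roles in the larva are much less well described. A hairpin yields a guide strand, which is retained by Argonaute, and a passenger strand. The family strands meant below are the members' strands miR-793, miR-794-5p and miR-795-5p together with the 5p strands of the other *let-7* family hairpins just named. Of these hairpins *mir-241* alone had more reads on the opposite arm, with miR-241-5p at 227.6 CPM (the count scaled to the library total) and miR-241-3p at 1356.0 CPM on average in the mutant, and 227.3 and 1545.0 CPM in N2.

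Library totals ranged from 2658960 to 4279734 counts in the mutant and from 1342771 to 3587330 counts in N2. The N2 library of 23 h was the shallowest of the 26 and had the lowest TMM factor, the scaling for library composition, at 0.697. The edited entry took 99.7% to 99.99% of miR-235-3p reads in mutant libraries and 0.0215% to 2.66% in N2 libraries, so every library matched its strain label. Marker miRNAs of muscle, neurons and intestine were all above 0 in every library. The 3p strands of miR-35 to miR-42, listed as markers of embryo and germ line, were also present. Their summed level had a median of 1494.6 CPM in the mutant and 1371.8 CPM in N2. In each strain 7 of these 8 were above 0 in every library. The authors report substantial levels of this family in larvae. Since animals were sampled whole, fewer cells that make a miRNA and less miRNA in each cell cannot be told apart. There was a single culture series per strain and no replicate at an hour, so the strain cannot be told apart from the culture, and each p-value rests on how far single hourly libraries scatter around a fitted curve.

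In the WBcel235 annotation *mir-795* and *mir-794* are neighbours on the plus strand of chromosome I, with 1032 bases between their hairpins, and the nearest coding genes on either side are F33E2.5 and T07D10.1. *mir-793* is on the plus strand of chromosome X between the coding genes *mct-3* and M03B6.4, and none of the hairpins overlaps another annotated gene. The annotated hairpins are 92 bases long for *mir-793*, 84 bases for *mir-794* and 89 bases for *mir-795*. The only annotated mature strand of *mir-793* is on the 3p arm and has 22 bases, miR-795-5p has 24 bases, miR-795-3p has 23 bases, and the strands of *mir-794* have 22 bases each. The reads had been aligned to an older build, ce10, so no coordinates are given.

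Of the members, miR-795-5p, the major strand of its hairpin, was the most abundant. Its level in CPM had a lowest value of 2238.3, a median of 3104.7 and a highest value of 4277.3 in the mutant, and a lowest value of 2348.3, a median of 3270.3 and a highest value of 6065.1 in N2. The lowest mutant value was at 30 h and the highest at 18 h, while in N2 they were at 29 h and 23 h. The highest N2 value thus came from the shallow library. miR-795-5p ranked 34th of all entries by mean CPM.

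miR-793 ranked 65th. It had a lowest value of 271.1 CPM, a median of 479.5 CPM and a highest value of 788.8 CPM in the mutant, and a lowest value of 331.2 CPM, a median of 498.2 CPM and a highest value of 715.4 CPM in N2. The highest levels were at 18 h in the mutant and at 19 h in N2, and the lowest at 30 h and 29 h.

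miR-794-5p, the major strand of *mir-794*, ranked 112th. It had a lowest value of 68.65 CPM, a median of 98.99 CPM and a highest value of 179.3 CPM in the mutant, and a lowest value of 68.85 CPM, a median of 81.72 CPM and a highest value of 115.8 CPM in N2. The mutant library of 18 h stood above the other 25, the next mutant value being 123.7 CPM at 28 h.

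The minor strands, from the 3p arms, were scarce. miR-795-3p had a lowest value of 21.59 CPM, a median of 38.06 CPM and a highest value of 89.35 CPM in the mutant, and a lowest value of 19.79 CPM, a median of 31.61 CPM and a highest value of 43.44 CPM in N2. miR-794-3p had 0 to 12 counts in mutant libraries and 1 to 8 counts in N2 libraries, with 64 reads in all in the mutant and 47 in N2. In the mutant library of 26 h it had 0 of 2658960 counts, which allows a level of up to 1.128 CPM at 3 counts. It did not pass the filter on low counts and was not tested, so that 4 of the 5 entries entered the tests.

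**Figure D1:**
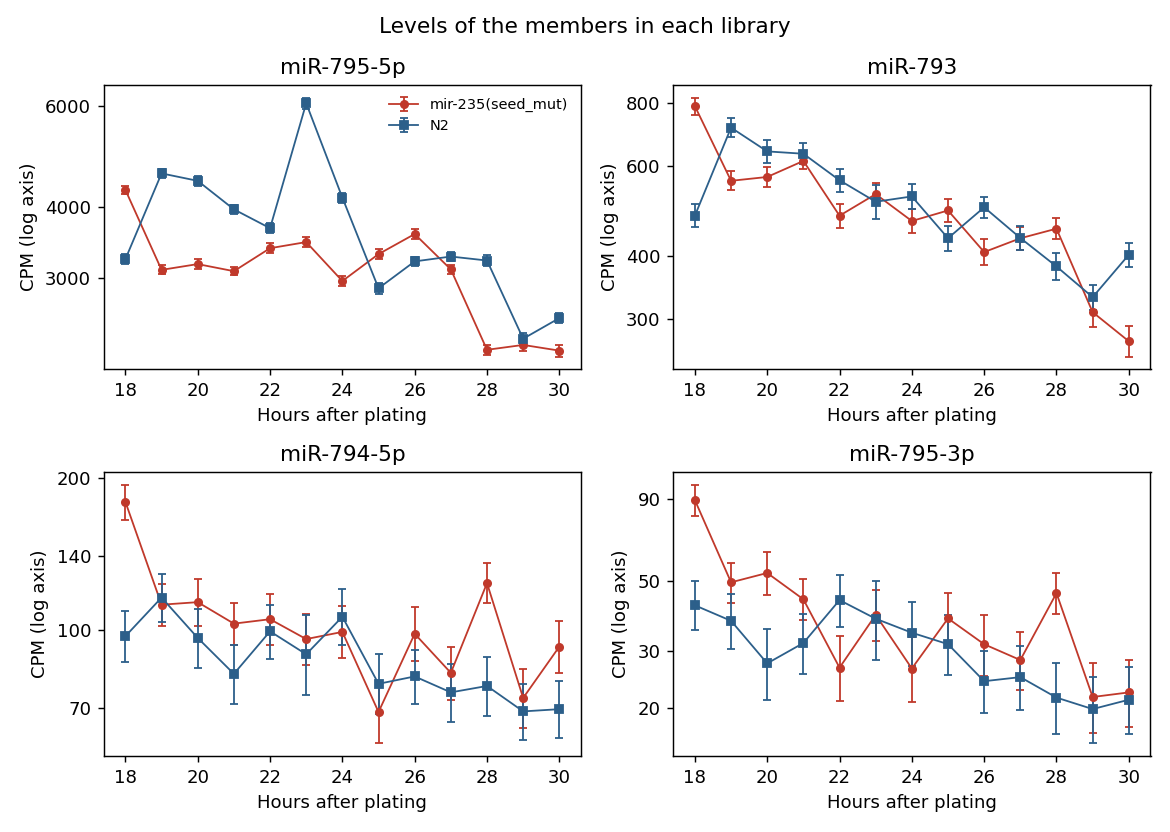
Level of each tested member in CPM (log axis) against hours after plating, in *mir-235(seed_mut)* (red circles) and N2 (blue squares), with 1 library a point and exact Poisson 95% intervals that cover counting error only. miR-795-5p in N2 peaks at 6065.1 CPM in the library of 23 h, and every member is at its mutant maximum at 18 h.

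The order of these levels was the same in all 26 libraries. miR-795-5p exceeded miR-793 by a median of 6.56-fold in the mutant and 6.75-fold in N2, miR-793 exceeded miR-794-5p by 4.73-fold and 5.72-fold, and miR-794-5p exceeded miR-795-3p by 2.71-fold and 3.09-fold. The ratios compare reads and not molecules, since adapters are known to ligate to different small RNAs with unequal efficiency.

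Levels at the end of the series were mostly below those at its start. miR-793 lay between 271.1 and 452.1 CPM at 28 to 30 h and between 561.9 and 788.8 CPM at 18 to 20 h in the mutant, and between 331.2 and 401.6 CPM at 28 to 30 h and between 479.5 and 715.4 CPM at 18 to 20 h in N2. All late libraries were below all early ones for 3 of the 4 tested members in the mutant (32.3% of the 217 miRNAs tested) and for 4 of 4 in N2 (26.7%). The exception was miR-794-5p in the mutant, at 73.21 to 123.7 CPM late and 112.1 to 179.3 CPM early. Consecutive hours of a culture are not replicates, and these windows are a description.

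The question of gradual change was put to the linear term in hours, fitted beside a 7 h cosine and sine and shared by the strains. In edgeR's quasi-likelihood test, with Benjamini-Hochberg adjustment over 217 miRNAs and a threshold of 0.01, 2 of the 4 tested members were called as falling, against 19.8% of all tested miRNAs called falling and 19.8% called rising. miR-793 fell by 0.064 ± 0.0143 (SE) log2 units per h (adjusted p = 0.000495), which over 12 h left 0.587 of the starting level. miR-795-3p fell by 0.0784 ± 0.0202 log2 units per h (adjusted p = 0.00199), which left 0.521. The median slope of all tested miRNAs was -0.000486 log2 units per h.

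The major strands of the chromosome I pair had negative slopes that did not pass the same edgeR test. The slope was -0.0356 ± 0.0161 log2 units per h for miR-794-5p (adjusted p = 0.0636) and -0.0432 ± 0.0215 for miR-795-5p (adjusted p = 0.0884). With library totals in place of TMM both were called, at -0.0526 and -0.0579, but that scaling moved the median of all tested miRNAs to -0.0179 log2 units per h and the split of calls to 32 rising and 68 falling, against 43 and 43. Without the N2 library of 23 h, miR-795-5p had a slope of -0.0348 ± 0.0134 (adjusted p = 0.0278).

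Among the members' own family strands, miR-793 alone was called as falling, as were 19.8% of all tested miRNAs. miR-795-3p, also called, is a minor strand and not a family strand. The other family strands went the other way. All 4 were called as rising in the shared slope by edgeR, namely let-7-5p at 0.453 ± 0.0778 log2 units per h (adjusted p = 4.425e-05), miR-48-5p at 0.108 ± 0.00967 (adjusted p = 2.457e-10), miR-241-5p at 0.103 ± 0.0159 (adjusted p = 5.788e-06) and miR-84-5p at 0.0686 ± 0.0119 (adjusted p = 2.413e-05). These miRNAs act in the heterochronic pathway that times larval cell fates. The 5p strands of the lin-4 family, which act in the same pathway, were not called in either direction, with slopes of -0.0107 ± 0.0165 for lin-4-5p and 0.0325 ± 0.0173 for miR-237-5p. Of the 3p strands of *let-7*, *mir-48*, *mir-84* and *mir-241*, only miR-84-3p was called, falling by 0.0833 ± 0.0123 log2 units per h. The difference in slope between the members and the other family strands was not tested.

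Fitted separately in each strain, no member passed the edgeR threshold with all libraries. In simulated data most modest slopes within a strain were missed, so a missing call is weak evidence. Of 26 fits without 1 library, miR-793 was called falling in 7 for the mutant and 10 for N2, and miR-795-3p in 2 and 7. The slope of miR-793 was -0.0588 ± 0.0208 log2 units per h in the mutant (adjusted p = 0.0323) and -0.0685 ± 0.0212 in N2 (adjusted p = 0.013). For miR-795-3p it was -0.0681 ± 0.0277 in the mutant (adjusted p = 0.0608) and -0.0865 ± 0.0289 in N2 (adjusted p = 0.0189). All 8 of these slopes, including those of miR-794-5p (-0.0244 and -0.048) and of miR-795-5p (-0.0128 and -0.0763), were below 0. They come from the same strands in each strain, with both arms of *mir-795* among them, and are not 8 separate observations. The median slope of all tested miRNAs was 0.00296 log2 units per h in the mutant and -0.00895 in N2. Without the mutant library of 18 h the mutant slope was -0.0344 ± 0.0255 for miR-795-3p and 0.0026 ± 0.0216 for miR-794-5p. Over all tested miRNAs 16.1% were called rising and 6.45% falling in the mutant, and 11.5% rising and 14.7% falling in N2. With library totals in place of TMM the mutant calls were 22 rising and 41 falling, against 35 and 14.

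**Figure D2:**
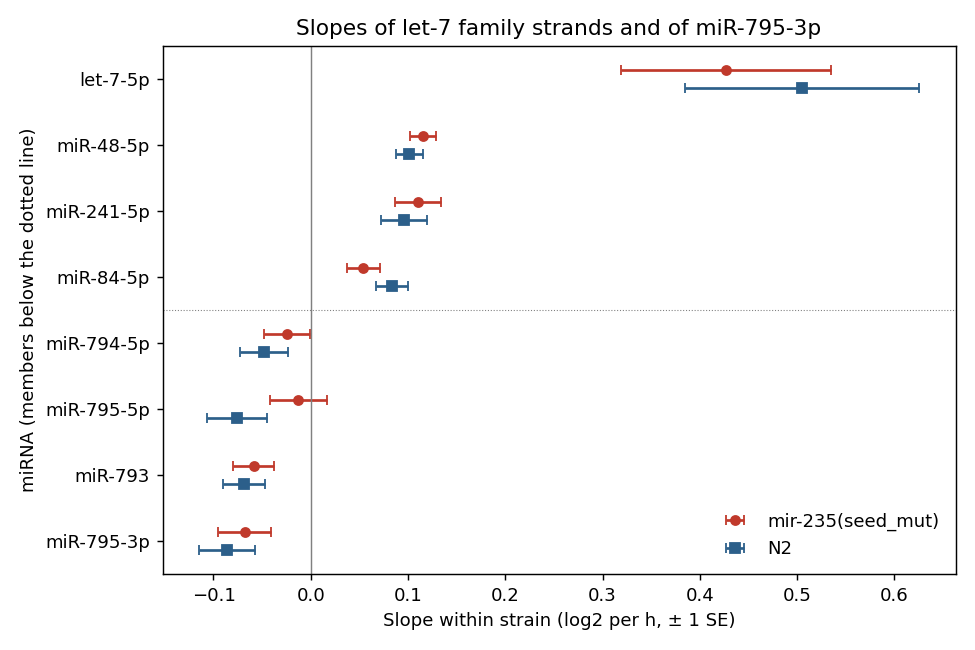
Slope within each strain (log2 per h, bars ± 1 SE) for *mir-235(seed_mut)* (red circles) and N2 (blue squares), with the other let-7 family strands above the dotted line and the tested members below it. The members have slopes from -0.0865 to -0.0128 and the other family strands from 0.0542 to 0.505.

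The slopes were not shown to differ between the strains. Mutant minus N2, the difference was 0.0635 ± 0.0425 log2 units per h for miR-795-5p (adjusted p = 0.719 in edgeR), 0.0236 ± 0.0338 for miR-794-5p, 0.0184 ± 0.04 for miR-795-3p and 0.00979 ± 0.0297 for miR-793. Over the other settings the sign of the last 3 was not stable, with lowest values of -0.00934 for miR-794-5p, -0.0115 for miR-795-3p and -0.0238 for miR-793. No miRNA of the 217 was called (0%), with 15 at an unadjusted p under 0.05 and 0 called by DESeq2 or limma.

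As their relatives rose, the members made up less of the family. miR-793, miR-794-5p and miR-795-5p together held 19.12% of the reads of the 7 let-7 family strands at 18 h in the mutant (Wilson 95% interval 18.87% to 19.37%), and 3.075% (3.009% to 3.142%) at 30 h. In N2 they held 13.31% at 18 h, a highest share of 17.01% at 19 h and 3.623% at 30 h. miR-795-5p carried most of it, with 15.59% at 18 h and 2.645% at 30 h in the mutant, and 11.3% at 18 h and 3.058% at 30 h in N2. let-7-5p moved the other way, with 2.737% at 18 h and 45.09% at 30 h in the mutant, and 2.238% at 18 h and 42.49% at 30 h in N2. The members' mean share at 28 to 30 h was 0.257 of that at 18 to 20 h in the mutant and 0.266 in N2, and as a share of all miRNA counts the same ratio was 0.629 in the mutant and 0.657 in N2. Of the other family strands, only let-7-5p gained mean share between these windows. The mean share of miR-48-5p went from 58.72% to 44.31% in the mutant and from 59.93% to 43.07% in N2. For miR-84-5p it went from 23.43% to 12.97% and from 21.16% to 12.72%. For miR-241-5p it went from 0.478% to 0.319% and from 0.505% to 0.369%.

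**Figure D3:**
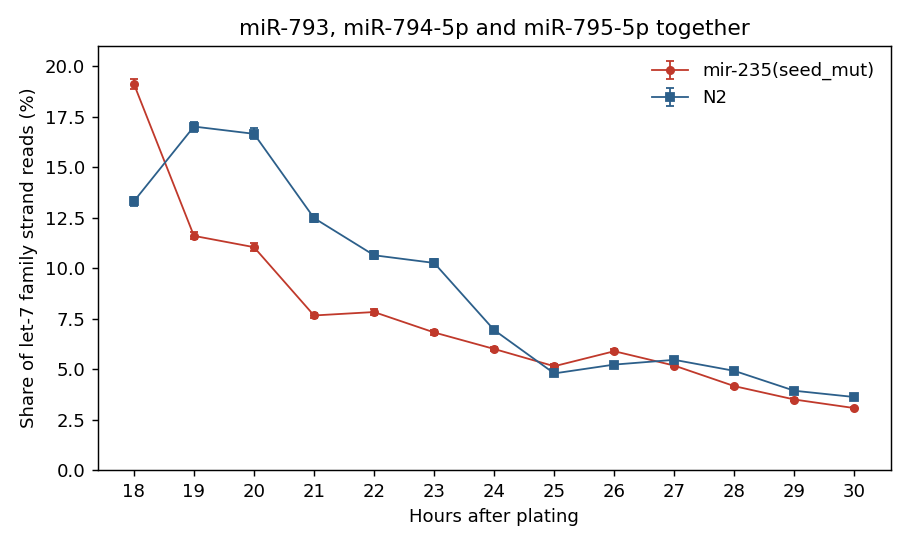
Summed reads of miR-793, miR-794-5p and miR-795-5p as a percent of the reads of 7 let-7 family strands, by hour, in *mir-235(seed_mut)* (red circles) and N2 (blue squares), with Wilson 95% intervals for counting error. The share is 19.12% in the mutant and 13.31% in N2 at 18 h, and 3.075% and 3.623% at 30 h.

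No rhythm was detected in the members at this sampling. The fitted 7 h amplitude, from midline to peak, was 0.25 ± 0.15 log2 units in the mutant and 0.18 ± 0.15 in N2 for miR-795-3p, and 0.19 ± 0.15 in the mutant and 0.18 ± 0.15 in N2 for miR-795-5p. miR-793 had 0.11 ± 0.11 in the mutant and 0.094 ± 0.11 in N2, and miR-794-5p had 0.054 ± 0.12 in the mutant and 0.023 ± 0.12 in N2. None of the 4 was called by edgeR's test of cosine and sine in either strain, where 2.3% of tested miRNAs were called in the mutant and 5.99% in N2. None was called for a rhythm difference between strains either (0.461% of all tested). A span of 12 h holds fewer than 2 periods, so amplitude and slope are partly confounded.

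The strains were compared by the mean difference over the hours, mutant minus N2, with a spline for time. No member passed the edgeR threshold, and over all tested miRNAs 2.76% were called higher and 4.61% lower in the mutant. With library totals in place of TMM the median difference of all tested miRNAs was 0.10, against -0.023, and 4 were called higher and 1 lower, against 6 and 10. miR-795-5p averaged 3092.7 ± 579.0 CPM in the mutant and 3657.8 ± 993.1 CPM in N2 (SD over 13 hours each), a difference of -0.39 ± 0.14 log2 units (adjusted p = 0.0532 in edgeR). Without the N2 library of 23 h the difference of miR-795-5p was -0.21 ± 0.091 (adjusted p = 0.114), and with library totals it was -0.23 ± 0.094 (adjusted p = 0.0762).

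miR-793 averaged 490.5 ± 132.6 CPM in the mutant and 503.7 ± 112.3 CPM in N2, a difference of -0.19 ± 0.099 log2 units, and -0.098 ± 0.088 without the N2 library of 23 h. miR-794-5p averaged 103.5 ± 27.61 CPM in the mutant and 87.33 ± 14.58 CPM in N2, a difference of 0.10 ± 0.11, and 0.19 ± 0.11 without that library. miR-795-3p averaged 39.61 ± 18.16 CPM in the mutant and 30.58 ± 8.061 CPM in N2, a difference of 0.21 ± 0.14, and 0.32 ± 0.13 without it. With library totals in place of TMM the differences were -0.054 ± 0.084 for miR-793, 0.23 ± 0.098 for miR-794-5p and 0.34 ± 0.13 for miR-795-3p, and the CPM means above likewise carry no TMM factor. With all libraries and TMM, the differences of these 3 members lay within 2 SE of 0, and their adjusted p-values in edgeR were 0.174 for miR-793, 0.527 for miR-794-5p and 0.283 for miR-795-3p. The 7-term test of any strain difference over time called no member and no other miRNA (0%), with 34 of 217 at an unadjusted p under 0.05, 8 called by DESeq2 and 0 or 1 by limma with a pseudocount of 8 or 1.

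Hour by hour, the mutant level was above the N2 level at 3 of 13 hours for miR-795-5p, at 4 of 13 for miR-793, at 10 of 13 for miR-794-5p and at 11 of 13 for miR-795-3p. These numbers and the ratios that follow use CPM without TMM factors, unlike the edgeR tests. At 23 h the factor was 0.697 in N2 and 1.073 in the mutant, so the number of hours depends on the scaling. Hours were not counted with TMM factors or over all tested miRNAs. The ratio of mutant to N2 CPM ranged from 0.572 to 1.32 for miR-795-5p, with the lowest at 23 h. It ranged from 0.675 to 1.65 for miR-793, from 0.879 to 1.85 for miR-794-5p and from 0.614 to 2.14 for miR-795-3p. All of these highest ratios were at 18 h, where the 4 members were higher in the mutant together. How many of the 217 tested miRNAs were also higher at that hour was not counted, so a shift of the whole library cannot be told apart. The TMM factors at 18 h were 1.103 in the mutant and 1.054 in N2. Over all hours, library totals alone put the median strain difference of all tested miRNAs at 0.10 log2 units.

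**Figure D4:**
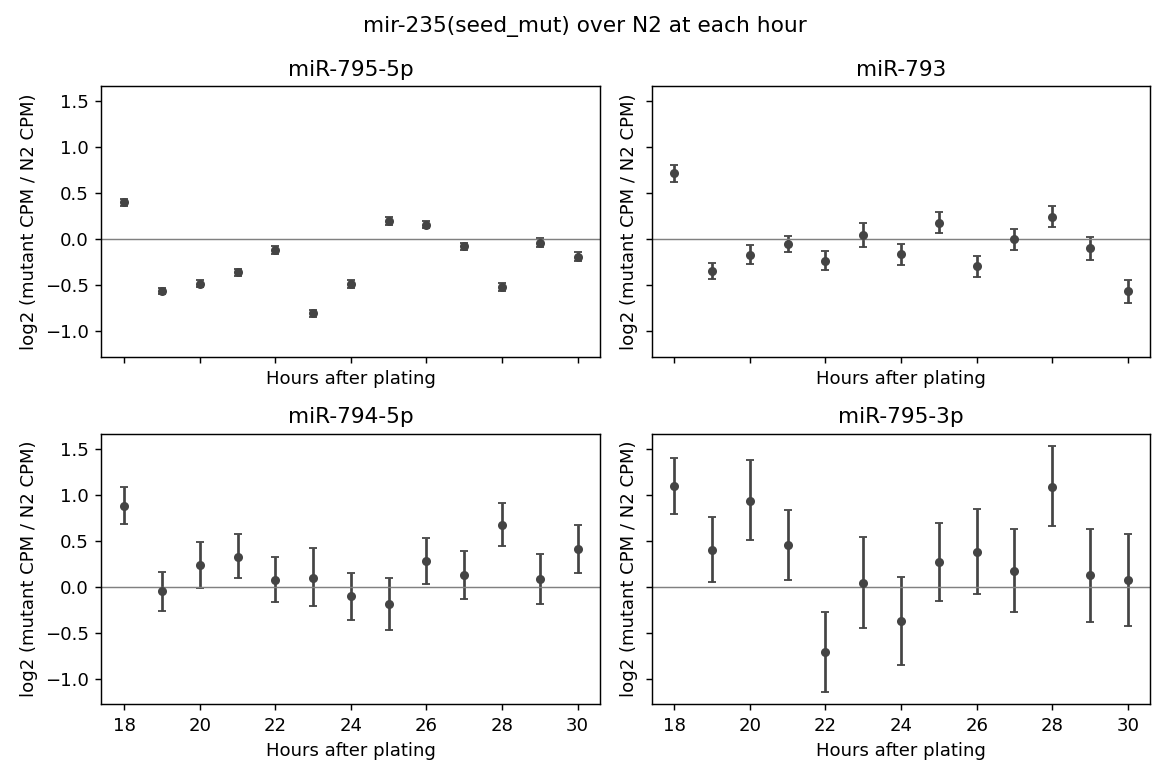
The log2 ratio of CPM in *mir-235(seed_mut)* over N2 at each hour for the 4 tested members, with exact 95% intervals for counting error and a line at 0 for equal levels. The CPM carry no TMM factor. At 18 h all 4 lie above 0, with ratios of 1.32 for miR-795-5p, 1.65 for miR-793, 1.85 for miR-794-5p and 2.14 for miR-795-3p.

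In the single culture series of each strain, miR-795-3p and miR-794-5p were at most hours higher relative to miR-795-5p in the mutant. Of all *mir-795* reads, the 3p arm held 0.783% to 2.05% in mutant libraries and 0.616% to 1.28% in N2 libraries. With the reads of all hours pooled it held 1.303% in the mutant and 0.847% in N2. Within libraries, the log2 ratio of miR-795-3p to miR-795-5p was -6.37 ± 0.48 in the mutant and -6.89 ± 0.33 in N2 (SD over 13 hours), higher in the mutant at 12 of 13 hours by a mean of 0.52 ± 0.60. The ratio of miR-794-5p to miR-795-5p was -4.92 ± 0.35 in the mutant and -5.36 ± 0.27 in N2, also higher in the mutant at 12 of 13 hours, by a mean of 0.44 ± 0.40. Leaving out 28 h, the hour with the highest value, the means were 0.43 and 0.38. At 23 h, the hour of the shallow N2 library, the differences were 0.84 and 0.90. Both ratios share miR-795-5p as denominator, so they are not separate observations. The CPM of miR-795-5p was itself higher in the mutant at only 3 of 13 hours. Such ratios do not depend on the scaling of libraries, but they were chosen after the values had been seen and are given without a test. For *mir-794* the 3p arm held 1.432% of reads in the mutant and 1.497% in N2.

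**Figure D5:**
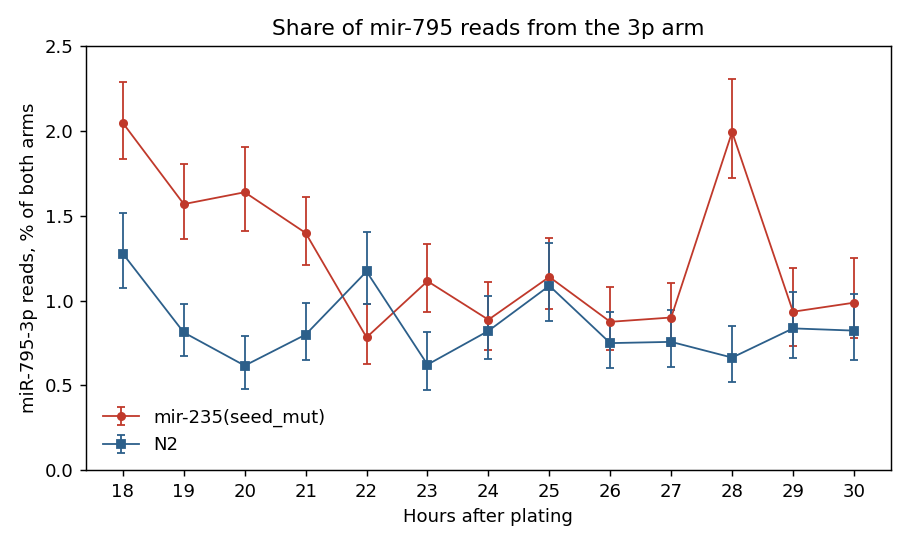
Reads of miR-795-3p as a percent of the reads of both arms of *mir-795*, by hour, in *mir-235(seed_mut)* (red circles) and N2 (blue squares), with Wilson 95% intervals for counting error. The mutant reaches 2.05% at 18 h and 1.99% at 28 h, and N2 does not exceed 1.28%.

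The miRNAs whose profiles most resembled those of the members were found by Pearson's correlation of log2 CPM over the 26 libraries, among the 176 miRNAs that averaged 50 counts or more. Here CPM carried the TMM factors, with a prior count of 2. The points share libraries, depth and the trend with hours, and the values are a description. miR-795-5p was most like miR-57-5p (0.961), miR-73-3p (0.945) and miR-243-3p (0.916), and least like miR-79-3p (-0.866). miR-793 was most like miR-72-5p (0.88), miR-229-3p (0.88) and miR-1022-5p (0.876), and least like miR-85-3p (-0.767). miR-794-5p was most like miR-795-3p, from the neighbouring hairpin (0.735), followed by miR-46-5p (0.727) and miR-86-3p (0.723), and least like miR-51-3p (-0.738). miR-795-3p was most like miR-1018 (0.787), miR-244-5p (0.784) and miR-76-3p (0.783), and least like miR-77-3p (-0.729).

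Between the major strands of the adjacent hairpins, miR-794-5p and miR-795-5p, the correlation was 0.487 over all libraries, with 0.243 in the mutant and 0.9 in N2 over 13 libraries each. miR-793, from another chromosome, had 0.776 with miR-795-5p (0.591 in the mutant and 0.863 in N2) and 0.593 with miR-794-5p (0.483 and 0.854). The arms of *mir-795* had 0.411 with each other (0.404 in the mutant and 0.747 in N2), and the pooled value placed miR-795-5p 35th of 176 for miR-795-3p. With TMM factors the N2 library of 23 h held the N2 maxima, 8696 CPM for miR-795-5p and 128.1 CPM for miR-794-5p. Without the factors that library had 6065.1 and 89.37 CPM. The correlations were not repeated without it.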

How the data were processed

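Small RNA reads of 26 libraries, 13 per strain, had been counted by the authors, who aligned to ce10 with Bowtie (submitters' processing notes, version not given in the sources used here) and counted reads at mature miRNA 5′ ends. The deposited counts were analysed. The authors' deposited log2 table holds depth-scaled counts plus a pseudocount of 8, and was used only to check the counts, which gave its values within 0.0005. Both miR-235 alleles were summed per arm. Tests used edgeR 4.0.16 under R 4.3.3 (TMM, filterByExpr, robust quasi-likelihood), adjusting over 217 miRNAs at 0.01. Alternatives were DESeq2 1.42.0, limma 3.58.1 with pseudocounts of 8 and 1, other scalings, filters, periods of 6.5 h and 8 h, mutant hours moved by 1 h, hour as a block and each library left out. Scripts were tested on simulated data, with the pass decided on large effects, bias and false calls. Recovery of modest effects was not required, and edgeR missed most modest slopes within a strain. Library totals ranged from 1342771 to 4279734, and intervals cover counting error only because reads carry no molecular identifiers. Named miRNAs were the members, the other let-7 family strands and their opposite arms, the lin-4 family 5p strands, and the 3 profiles most like and the 1 least like each tested member. The members and lists were chosen with earlier results of these data known. miRNA sequences were not used here.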

Additional observations from a re-analysis of the deposited data

How the results depend on the processing

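The falling shared slopes of miR-793 and miR-795-3p kept direction and call in all 26 fits without 1 library and under 10 of 10 other settings. The shared slopes of miR-794-5p and miR-795-5p were called only with library totals (-0.0526 and -0.0579), limma with a pseudocount of 1 (-0.0526 and -0.0567) and of 8 (-0.0513 and -0.0566), none of which uses TMM. The mutant slope of miR-793 was called with DESeq2 (-0.0628), a mean of 50 counts (-0.0677), library totals (-0.0892), limma with pseudocounts of 1 and 8 (-0.0893 and -0.0889) and no cosine and sine (-0.0661), and that of miR-795-3p with library totals (-0.0977), limma (-0.095 and -0.0896) and no cosine and sine (-0.0875). The N2 slope of miR-793 was called under the same settings in that order (-0.0585, -0.0611, -0.0684, -0.0675, -0.0672 and -0.0692), that of miR-795-3p with library totals (-0.0902) and limma (-0.0887 and -0.0821), and that of miR-795-5p with library totals (-0.0724). Without 1 library, the slope of miR-793 ran from -0.0742 to -0.0493 in the mutant and from -0.0889 to -0.0564 in N2, and that of miR-795-3p from -0.0941 to -0.0344 in the mutant and from -0.102 to -0.0733 in N2. The ratio of the members' share at 28 to 30 h to that at 18 to 20 h was 0.629 in the mutant and 0.657 in N2 with all miRNA counts as denominator, against 0.257 and 0.266 within the family. Over all miRNAs, 16 mean strain differences were called, against 1 with hour as replicate block, 1 with no filter, 10 with mutant hours 1 h later, 5 with library totals and 4 with limma. More were called with DESeq2 (24), with DESeq2 size factors in edgeR (17) and with a filter at a mean of 50 counts (17). Over the settings that kept all libraries, the mean strain difference ran from -0.28 to -0.054 for miR-793, from 0.0064 to 0.23 for miR-794-5p and from 0.059 to 0.34 for miR-795-3p, with no call. The block changed no call of a member, with -0.35 ± 0.13 for miR-795-5p. Leaving out 1 library gave 1 to 21 (1 without the mutant library of 29 h, the N2 library of 21 h or that of 30 h). Rhythm calls numbered 5 in the mutant and 13 in N2, against 20 and 23 with DESeq2, 11 in the mutant with no filter and 6 in N2 at 6.5 h, and 1 to 18 and 10 to 17 without 1 library. Rhythm differences numbered 1, against 11 with mutant hours 1 h earlier. The causes were not tested. At 1 library an hour, p-values cannot separate strain from culture, and miR-794-3p was too scarce to test.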
